A study of Mus musculus with 6 samples.

Results

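The core and linker histone genes are the genes of the proteins that package DNA, and 44 of them were found among the 20405 genes of the array by a symbol that begins with Hist1h, Hist2h, Hist3h or Hist4h. They comprised 6 H1, 10 H2A, 12 H2B, 7 H3 and 9 H4 genes. The symbols alone chose them, and where the array held several probe sets for a gene, the brightest by its mean over all 6 arrays stood for it. RNA was measured in M0505 cells (3 arrays), an early passage line of ovarian surface epithelium from FVB/N mice, and in STOSE cells (3 arrays), the line that M0505 cells became by spontaneous transformation in long-term culture. Neither line received an engineered allele or a treatment, both were kept in the same medium with EGF and fetal calf serum, and each group is a single cell line, so the comparison is of 1 line with another. The labels name the arrays of a line as biological replicates without saying how the cultures were separated, so p-values measure the spread between these arrays.

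Pairs of H2A with H2B and of H3 with H4 form the core particle around which DNA winds, and the linker histone H1 sits where DNA enters and leaves it. The genes of the replication-dependent histones lie in clusters, have no introns and are transcribed mainly in S phase, when cyclin E with CDK2 acts on the coactivator NPAT. Most of their mRNAs end in a stem-loop bound by SLBP in place of a poly(A) tail, although some of these genes, Hist1h1c among them, also make polyadenylated transcripts. In the mouse the Hist1 cluster is on chromosome 13 (33 of the genes measured), Hist2 on chromosome 3 (7), Hist3 on chromosome 11 (3) and Hist4 on chromosome 6 (1).

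The promoters show how the classes differ in the sequence next to the start of transcription. RefSeq (GRCm38.p6) gave a promoter for 38 of the 44 genes, and the 250 bases before the start were searched on both strands for the CCAAT box, the TATA box letters TATAAA, the octamer ATTTGCAT, the E2F-like TTTNNCGC and the H1 box core AAACACA, each scored as present or not whether or not it overlapped another. The following 7 are shown because they belong to 5 genes called higher in STOSE cells, to Hist1h1c, which was called lower, and to an H3 gene for comparison. Capitals mark the motifs, which appear as their reverse complement (ATTGG for CCAAT) where they lie on the other strand.
Hist1h1a (chr13:23763418-23763667, plus strand): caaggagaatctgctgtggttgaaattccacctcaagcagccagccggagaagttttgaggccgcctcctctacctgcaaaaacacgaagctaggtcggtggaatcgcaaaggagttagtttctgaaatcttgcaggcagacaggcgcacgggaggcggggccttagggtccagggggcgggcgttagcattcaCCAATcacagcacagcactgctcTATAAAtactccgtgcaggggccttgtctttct
Hist1h1c (chr13:23738557-23738806, plus strand): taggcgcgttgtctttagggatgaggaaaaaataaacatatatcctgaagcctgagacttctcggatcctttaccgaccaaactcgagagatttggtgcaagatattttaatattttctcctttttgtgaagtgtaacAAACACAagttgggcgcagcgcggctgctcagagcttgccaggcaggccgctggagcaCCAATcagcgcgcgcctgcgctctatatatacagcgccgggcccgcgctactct
Hist1h2ab (chr13:23750838-23751087, plus strand): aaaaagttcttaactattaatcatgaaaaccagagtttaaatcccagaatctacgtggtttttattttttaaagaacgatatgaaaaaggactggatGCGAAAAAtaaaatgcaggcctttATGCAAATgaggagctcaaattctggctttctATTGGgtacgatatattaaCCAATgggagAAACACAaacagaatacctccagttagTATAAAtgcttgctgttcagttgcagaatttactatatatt
Hist2h2bb (chr3:96269450-96269699, plus strand): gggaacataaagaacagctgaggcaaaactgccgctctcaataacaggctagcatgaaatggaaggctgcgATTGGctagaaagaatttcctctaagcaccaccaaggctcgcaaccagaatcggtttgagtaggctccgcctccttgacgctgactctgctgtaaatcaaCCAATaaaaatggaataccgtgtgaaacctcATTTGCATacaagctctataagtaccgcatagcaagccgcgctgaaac
Hist2h3b (chr3:96268404-96268653, plus strand): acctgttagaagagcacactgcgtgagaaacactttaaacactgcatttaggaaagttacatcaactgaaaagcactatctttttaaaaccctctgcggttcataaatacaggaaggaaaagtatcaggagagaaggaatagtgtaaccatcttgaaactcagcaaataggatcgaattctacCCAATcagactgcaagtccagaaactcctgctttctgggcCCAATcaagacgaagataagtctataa
Hist1h4f (chr13:23551669-23551918, minus strand): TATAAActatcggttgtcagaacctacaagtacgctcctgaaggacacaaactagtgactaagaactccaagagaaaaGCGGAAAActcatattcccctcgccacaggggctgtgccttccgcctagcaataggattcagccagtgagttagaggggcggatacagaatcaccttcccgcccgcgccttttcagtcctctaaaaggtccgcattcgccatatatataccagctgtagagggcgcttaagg
Hist4h4 (chr6:136804432-136804681, minus strand): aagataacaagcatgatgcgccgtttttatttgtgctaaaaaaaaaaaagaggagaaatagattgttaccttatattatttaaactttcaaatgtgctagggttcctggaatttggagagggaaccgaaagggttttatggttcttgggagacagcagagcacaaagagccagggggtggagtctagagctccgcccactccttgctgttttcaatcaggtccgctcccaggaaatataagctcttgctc

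CCAAT was found in 30 of 38 histone promoters (78.9%) against 34.5% of all 27025 promoters, and TATAAA in 19 (50%) against 13.0%. In 11 promoters TATAAA lay on the forward strand 20 to 60 bases before the start. The TATAAA of Hist1h2bb and of Hist1h4f, both called higher, began 10 and 250 bases before it. The octamer was found in 10 (26.3%) against 1.61%, and all of these were H2A or H2B promoters (5 of 10 and 5 of 9). AAACACA was found in 5 of 6 H1 promoters, 9 of 38 in all (23.7%), against 6.22% of all promoters. Hist1h1a was the H1 gene whose 250 bases did not hold these letters. The E2F-like letters were found in 6 of 38 (15.8%) against 4.39%. CCAAT was in every H1, H2A and H2B promoter, in 3 of 5 H3 promoters and in 2 of 8 H4 promoters, and the Hist4h4 sequence above held none of the motifs searched. In 3 pairs of H2A and H2B genes, on opposite strands with starts 180 to 281 bases apart, the windows overlapped. A match in the overlap counted for both genes, so these are counts of promoters and not of separate sites. Hist1h2aa and Hist1h2ba shared their octamer and their AAACACA, Hist1h2ae and Hist1h2bg their octamer, and Hist1h2an and Hist1h2bp their E2F-like letters. All are matches of letters, not binding sites. CCAAT was in 7 of 9 promoters of genes called higher and in 22 of 28 of genes not called, and the octamer in 4 of 9 and 6 of 28. TATAAA was in 5 of 9 and 14 of 28, and the E2F-like letters were in 3 of 9 and 3 of 28. AAACACA was in 3 of 9 and 5 of 28. These splits were not tested.

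The histone genes were mostly higher in STOSE cells. Of the 44, 42 had a positive log2 fold change (STOSE minus M0505) and the median was 0.43, against 0.08 over all genes. The others were Hist1h1c and Hist1h2ac, the latter at background with overlapping arrays. In limma's two-sided test with Benjamini-Hochberg adjustment over all genes, 36 of 44 (81.8%) were higher at an adjusted p under 0.05, against 31.6% of all genes, and 1 was lower, against 24.8%. With the further requirement of a 2-fold difference, 10 of 44 (22.7%) were called higher, against 4.90% of all genes, and 1 was called lower, against 7.59%. All STOSE arrays lay above all M0505 arrays for 39 of the 44 genes, against 37.6% of all genes, and below them for 1, against 27.0%. Several of these genes are near-identical copies whose probe sets can read each other, so the 44 are not 44 independent measurements. In RNA from whole cultures, more cells in S phase and more histone mRNA per cell cannot be told apart. By the study's flow cytometry, a larger share of STOSE than of M0505 cells was in S phase. The part of that difference in the histone values was not tested. The median over all genes was 6.46 to 6.49 on the M0505 arrays and 6.25 to 6.29 on the STOSE arrays. Centring each array on its median adds the same amount to every fold change. It moved the median of all genes to 0.28 and that of the histone genes to 0.63, and 55.5% of all calls were then higher in STOSE cells, against 39.2%. The number of genes called higher was 6 without M0505 replicate 2, when Hist1h2ab (0.96), Hist1h2bb (0.98), Hist1h2bm (0.95) and Hist1h4f (0.98) fell just short of 2-fold.

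**Figure D1:**
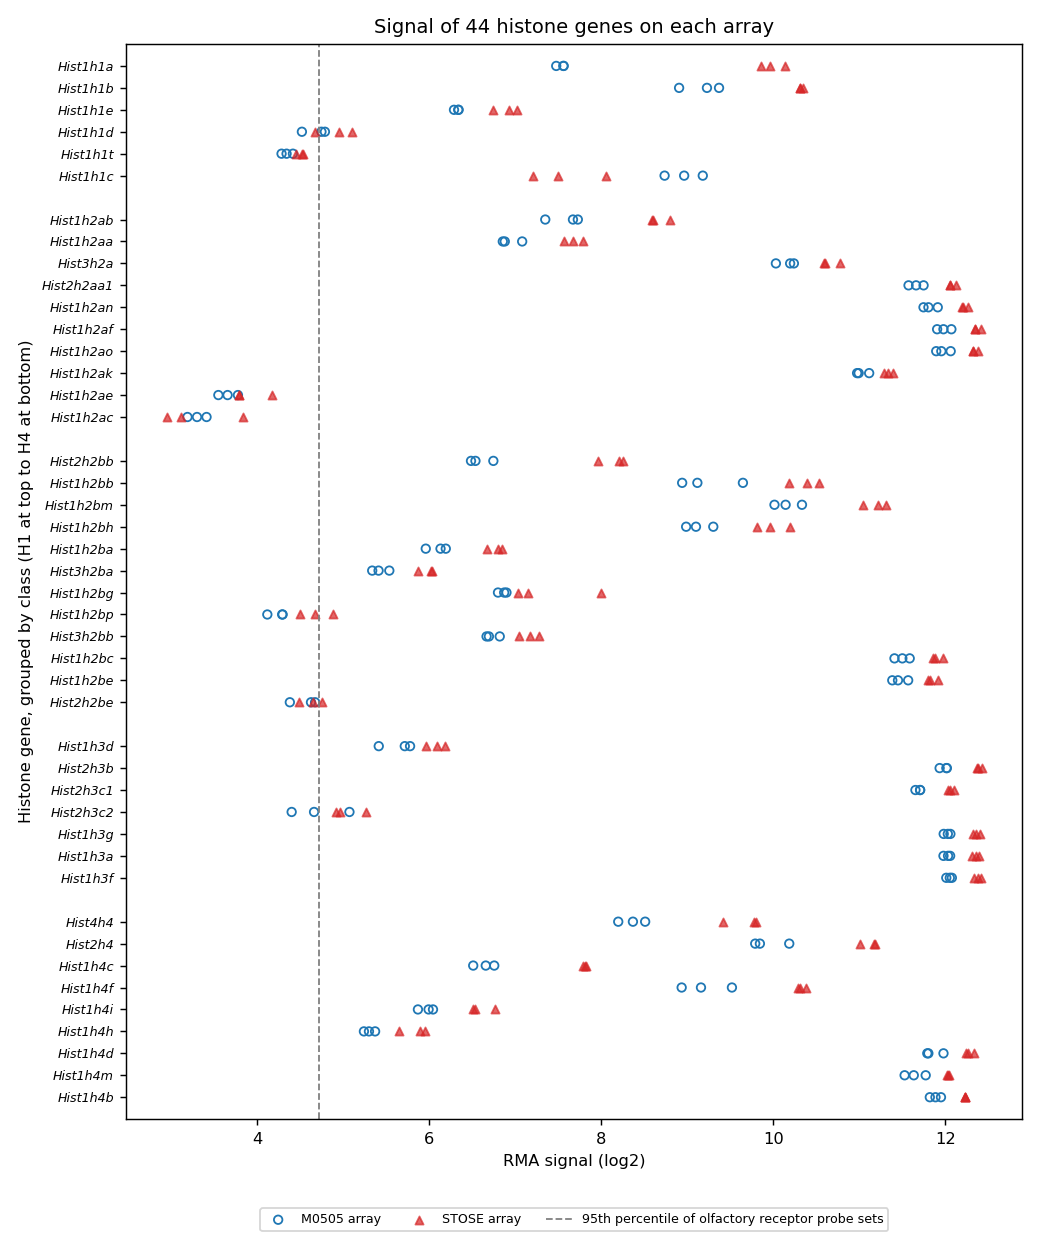
RMA signal (log2, x axis) of each of the 44 histone genes (y axis, grouped from H1 at the top to H4 at the bottom) on the 3 M0505 arrays (open circles) and the 3 STOSE arrays (triangles), with the 95th percentile of olfactory receptor probe sets as a dashed line. The triangles lie to the right of the circles for 39 genes and to the left for Hist1h1c.

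Signal was set against 1134 probe sets of olfactory receptor genes, taken as silent in these cells, whose 95th percentile of mean log2 signal was 4.72. By that measure 5 histone genes were at or below background (Hist1h1t, Hist1h2ac, Hist1h2ae, Hist1h2bp and Hist2h2be). At the other end, 15 genes had a mean of 11 or more on an array whose highest value was 12.81. They were 5 H2A, 2 H2B, 5 H3 and 3 H4 genes, and no H1 gene. All 15 were higher in STOSE cells at an adjusted p under 0.05 (36.2% of the 467 genes at this signal were), and their log2 fold changes lay in the narrow range of 0.31 to 0.42. None of the 15 was called. Of the 467 genes at this signal, 1 was called higher (0.214%) and 7 lower. The other 24 lay between, and they held all 10 genes called higher, against 6.95% of the 13988 genes in that range, and the 1 called lower. Their median log2 fold change was 0.71.

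**Figure D2:**
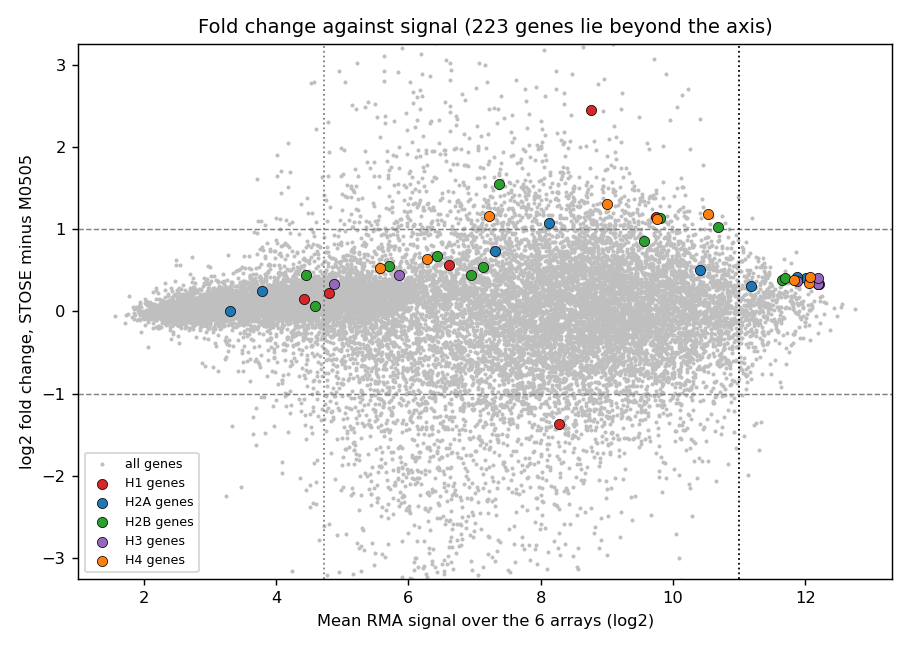
Fold change (log2, STOSE minus M0505, y axis) against mean RMA signal over the 6 arrays (log2, x axis) for all genes (grey) and the histone genes by class (colors), with dotted lines at the background of 4.72 and at 11 and dashed lines at 2-fold; 223 genes lie beyond the y axis. The 15 histone genes to the right of 11 sit between 0.31 and 0.42.

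The H1 genes differed most among themselves, with 2 called higher, 1 called lower and 3 not called (median 0.40). Of all genes, 4.90% were called higher and 7.59% lower. Hist1h1a encodes H1.1, a subtype of the linker histone. Its log2 signal was 7.56, 7.48 and 7.56 on the M0505 arrays and 9.86, 10.13 and 9.96 on the STOSE arrays. The arrays were far apart, and the log2 fold change of 2.45 (SE 0.08, adjusted p = 8.08e-08), or 5.47-fold, was the largest of the 44 genes. Hist1h1b, which encodes H1.5, had values of 9.37, 8.91 and 9.23 in M0505 cells and 10.35, 10.31 and 10.31 in STOSE cells. The STOSE arrays were tight (SD 0.02) and all lay above the M0505 arrays (log2 fold change 1.15, SE 0.11, adjusted p = 3.63e-05).

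By the highest-mean probe set of each gene, Hist1h1c, which encodes H1.2, was the histone gene called lower in STOSE cells. A dimmer probe set of Hist1h2bc, described below, fell further (−1.80). Hist1h1c read 8.74, 8.96 and 9.18 on the M0505 arrays and 8.06, 7.50 and 7.21 on the STOSE arrays, with no overlap. The log2 fold change was −1.37 (SE 0.20, adjusted p = 0.000513), and the STOSE arrays were spread more widely (SD 0.43) than the M0505 arrays (SD 0.22). Hist1h1e, which encodes H1.4, rose from 6.34, 6.29 and 6.34 to 7.02, 6.93 and 6.74, which passed the adjusted p but was under 2-fold (log2 fold change 0.57, SE 0.08, adjusted p = 0.000333). Hist1h1d, which encodes H1.3, read 4.52 to 4.79 and 4.68 to 5.10, so the arrays overlapped close to background (adjusted p = 0.136). The testis-specific Hist1h1t was at background in both lines, at 4.28 to 4.42 and 4.45 to 4.53 (adjusted p = 0.0631).

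**Figure D3:**
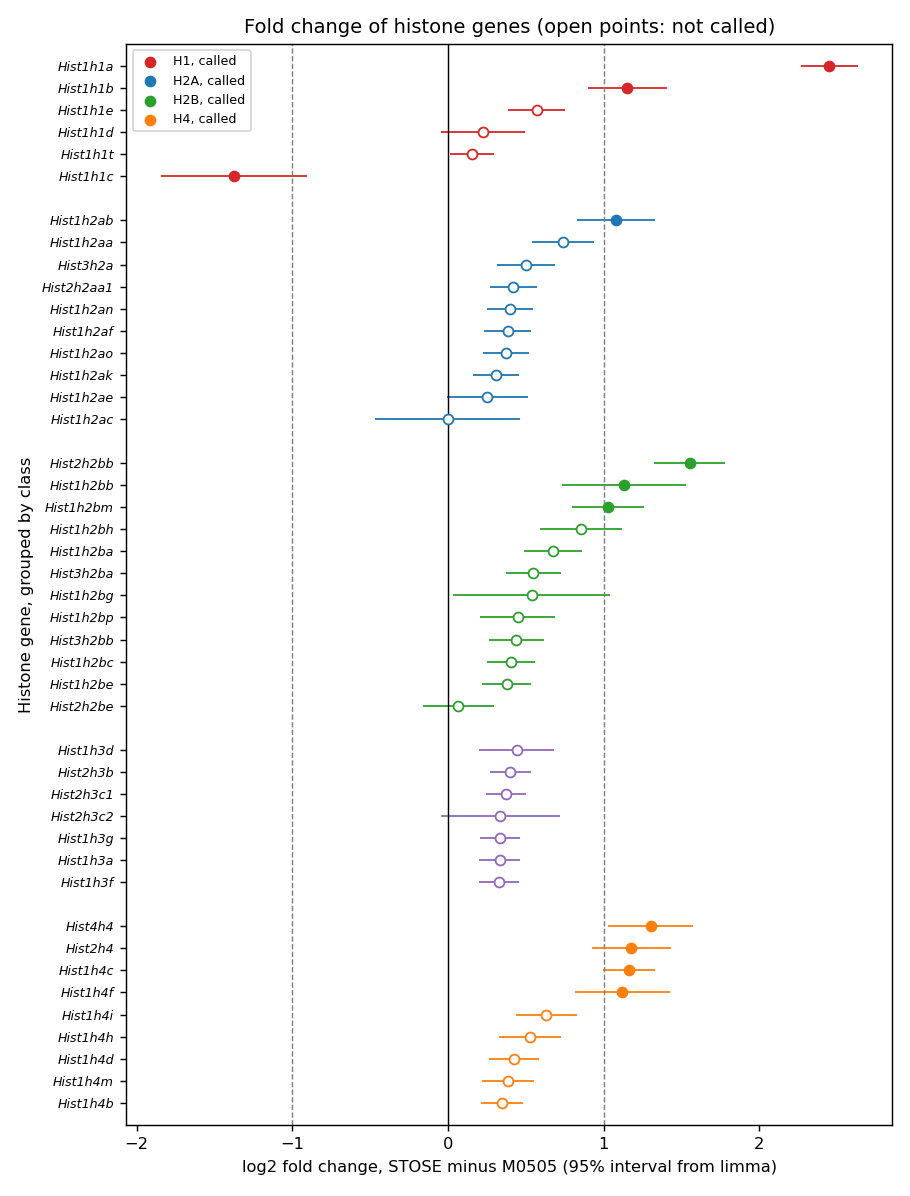
Log2 fold change (STOSE minus M0505, x axis) of the 44 histone genes (y axis) by class, with 95% intervals from limma; filled points were called at an adjusted p under 0.05 and 2-fold (dashed lines), open points were not. The H3 genes have no filled point, and the H1 genes run from −1.37 to 2.45.

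Of the 10 H2A genes (median 0.39), 8 were higher at an adjusted p under 0.05, against 31.6% of all genes. Only 1 was called higher, which with so few genes is close to the 4.90% of all genes. The called gene was Hist1h2ab, at 7.73, 7.35 and 7.67 in M0505 cells and 8.79, 8.60 and 8.59 in STOSE cells (log2 fold change 1.08, SE 0.11, adjusted p = 4.94e-05). Hist1h2af, 1 of the 5 H2A genes near the top of the range, read 12.07, 11.90 and 11.98 in M0505 cells and 12.42, 12.34 and 12.34 in STOSE cells. Its arrays did not overlap either, but the difference was 0.38 (SE 0.06, adjusted p = 0.00107). Hist1h2aa, which encodes a testis H2A, read 6.86 to 7.08 and 7.57 to 7.79 (log2 fold change 0.74, SE 0.09, adjusted p = 0.000115).

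The H2B genes were all on the positive side, with 10 of 12 past the adjusted p and 3 called (median 0.54). The shares of all genes, in the higher direction, were 31.6% and 4.90%. Hist2h2bb, from the cluster on chromosome 3, read 6.75, 6.54 and 6.49 in M0505 cells and 8.21, 8.25 and 7.97 in STOSE cells. Its log2 fold change of 1.55 (SE 0.10, adjusted p = 3.38e-06) was second to that of Hist1h1a. Hist1h2bb read 9.65, 8.94 and 9.12 and then 10.53, 10.39 and 10.18 (log2 fold change 1.13, SE 0.17, adjusted p = 0.000633). M0505 replicate 1 was the high one of its line here, yet it lay below every STOSE array. Hist1h2bm read 10.33, 10.01 and 10.14 and then 11.31, 11.22 and 11.04 (log2 fold change 1.03, SE 0.10, adjusted p = 4.06e-05), and it was also under 2-fold without STOSE replicate 1, at 0.97. The testis H2B gene Hist1h2ba, whose start lies 281 bases from that of Hist1h2aa on the other strand, read 5.96 to 6.19 and 6.67 to 6.84 (log2 fold change 0.67, SE 0.08, adjusted p = 0.000139). Of 12 male germ cell genes on a fixed list, 10, Dazl and Sycp3 among them, were at or below background. Prm1 (5.00 in M0505 and 5.09 in STOSE cells on average) and Prm2 (5.41 and 5.60) were above it. The mean level of the list was 3.69 to 3.71 on the M0505 arrays and 3.83 to 3.88 on the STOSE arrays. Ddx4, at background by its mean, was called higher (log2 fold change 1.10), and the part of this list in the testis histone values was not tested.

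Hist1h2bc gave opposite answers from its probe sets. The one with the highest mean, used above, read 11.59, 11.41 and 11.50 in M0505 cells and 11.97, 11.88 and 11.86 in STOSE cells (log2 fold change 0.41, SE 0.07). The next read 10.71, 10.80 and 10.92 and then 8.89, 9.06 and 9.07, a log2 fold change of −1.80 (SE 0.08, adjusted p = 8.69e-07, fitted with all probe sets). The remaining one was below background in both lines, at 3.29 to 3.63 and 3.20 to 3.54. The direction of this gene therefore depended on the probe set, and the highest-mean rule took the one that moved like the other genes at that signal. The other 7 genes with several probe sets had all of theirs on the positive side. The 7 of Hist1h2ao lay between 0.37 and 0.40, and the 5 of Hist2h2aa1 between 0.42 and 0.44. A pair of probe sets of Hist1h2ao and the pair of Hist1h4m held identical values.

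**Figure D4:**
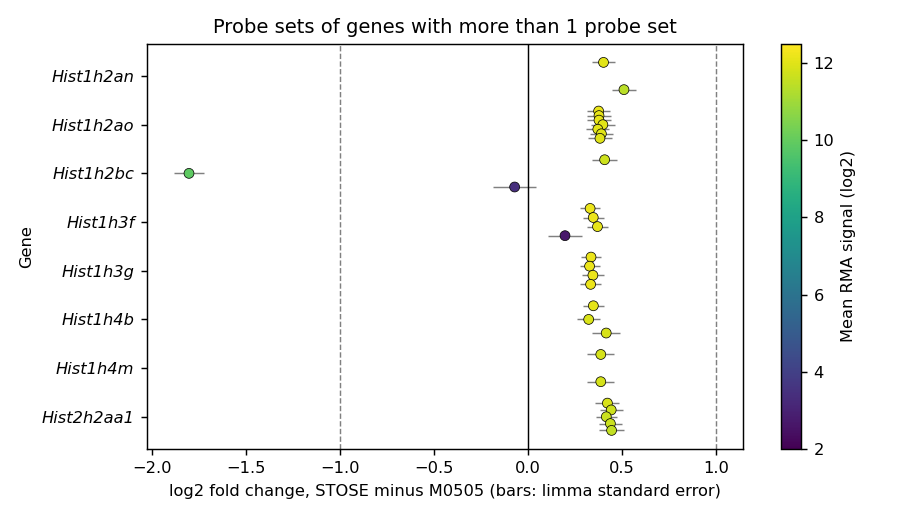
Log2 fold change (STOSE minus M0505, x axis) with limma's standard error for each probe set of the 8 histone genes (y axis) with more than 1 probe set, colored by mean RMA signal (log2). Hist1h2bc has probe sets at 0.41, −1.80 and −0.07, and those of the other 7 genes are all above 0.

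None of the 7 H3 genes was called, and 6 were higher at an adjusted p under 0.05 (median 0.34). Of all genes, 4.90% were called higher and 31.6% were higher at that adjusted p. Hist1h3f, 1 of the 5 near the top of the range, read 12.07, 12.01 and 12.05 in M0505 cells and 12.37, 12.41 and 12.33 in STOSE cells (log2 fold change 0.33, SE 0.06, adjusted p = 0.00115). Hist2h3b, a neighbour of Hist2h2bb on chromosome 3, read 12.01, 11.93 and 12.02 and then 12.37, 12.42 and 12.37 (0.40, SE 0.06, adjusted p = 0.000377). Both were tight within a line and separate between lines. Hist1h3d, whose signal was closer to background, read 5.78, 5.72 and 5.41 and then 6.18, 6.09 and 5.96 (0.44, SE 0.10, adjusted p = 0.00704). As 5 of the 7 H3 genes had a mean of 11 or more, the class could be read below that signal from only 2 genes.

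All 9 H4 genes were higher at an adjusted p under 0.05 without overlap of arrays, and 4 were called (median 0.63). Of all genes, 31.6% were higher at that adjusted p, 37.6% were higher without overlap and 4.90% were called higher. Hist4h4, alone on chromosome 6, read 8.51, 8.20 and 8.37 in M0505 cells and 9.77, 9.79 and 9.42 in STOSE cells (log2 fold change 1.30, SE 0.12, adjusted p = 2.73e-05). Hist2h4 read 10.19, 9.84 and 9.79 and then 11.17, 11.18 and 11.003 (1.18, SE 0.11, adjusted p = 3.02e-05). Hist1h4c read 6.76, 6.51 and 6.66 and then 7.81, 7.82 and 7.78 (1.16, SE 0.07, adjusted p = 3.06e-06). Hist1h4f, named because it was called and outside the rule for named genes, read 9.52, 8.93 and 9.16 and then 10.28, 10.38 and 10.31 (1.12, SE 0.13, adjusted p = 0.00013). Hist1h4d, 1 of the 3 H4 genes near the top of the range, differed by 0.42 (SE 0.07, adjusted p = 0.000991). Among the 6 H4 genes below a mean of 11 the median was 1.14. Differences between the classes, which hold few genes and differ in signal, were not tested.

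By cluster, the median log2 fold change was 0.42 for Hist1, 0.40 for Hist2 and 0.50 for Hist3, and the single gene of Hist4, Hist4h4, stood at 1.30. Of these, 7 of 33, 2 of 7, 0 of 3 and 1 of 1 were called higher, against 4.90% of all genes. Differences between clusters were not tested. The medians of all genes on the same chromosomes were 0.05 for chromosome 13, 0.18 for chromosome 3, 0.11 for chromosome 11 and 0.08 for chromosome 6. The shares of all genes called higher there were 4.25%, 9.78%, 4.17% and 4.98%, in that order. Both lines are aneuploid by the study's karyotyping, and the part of copy number in these values was not tested. Within the lines, M0505 replicate 1 lay above its line's mean for 36 of 44 genes, STOSE replicate 1 for 34 and STOSE replicate 3 for 4. In Hist1h2bg the spread came from 1 array: STOSE replicate 1 read 7.99, against 7.15 and 7.04 (adjusted p = 0.0674).

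Genes that make, process and handle histones were read from fixed lists. Of 29 genes for histone mRNA transcription and 3′ end processing, 16 were higher and 4 lower at an adjusted p under 0.05, against 31.6% and 24.8% of all genes (median 0.25). None was called higher and 1 was called lower, against 4.90% and 7.59%. Slbp, whose protein binds the stem-loop, read 8.48, 8.59 and 8.53 in M0505 cells and 9.02, 9.14 and 9.06 in STOSE cells (log2 fold change 0.54, SE 0.06, adjusted p = 0.000106). Npat differed by 0.27 (SE 0.06, adjusted p = 0.00537), and Casp8ap2, which encodes a histone locus body protein, by 0.69 (SE 0.07, adjusted p = 5.99e-05). The gene called lower was Mif4gd, which encodes an SLBP partner in translation (−1.34, SE 0.07, adjusted p = 1.36e-06).

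Of 32 chaperone and deposition genes measured, 7 were called higher and none lower, against 4.90% and 7.59% of all genes (median 0.38). At an adjusted p alone 19 were higher and 7 lower, against 31.6% and 24.8%, the latter with Atrx (−0.79), Asf1a (−0.62), Rbbp7 (−0.60) and Daxx (−0.51). The 6 with the largest differences were Nasp, which encodes a chaperone of H3 and H4 (1.83, SE 0.07), Npm3 (1.48, SE 0.10), Nfkbil2 (1.48, SE 0.11), now named Tonsl, Chaf1a (1.41, SE 0.07) and Asf1b (1.22, SE 0.06), which act in the deposition of new H3 and H4, and Anp32e, which encodes a chaperone of H2A.Z (1.19, SE 0.06). Nasp read 7.11, 7.19 and 6.998 in M0505 cells and 8.95, 8.93 and 8.91 in STOSE cells. DNA replication genes were also mostly higher in STOSE cells. At an adjusted p under 0.05, 35 of 37 were higher, against 31.6% of all genes. Of the 37, 20 were called higher and none lower, against 4.90% and 7.59% (median 1.06). In this list the mean level was 8.58 to 8.70 on the M0505 arrays and 9.61 to 9.66 on the STOSE arrays. Their part in the histone result was not tested.

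Most replacement variants are made also outside S phase, from genes away from the clusters. Of 15 measured, 1 was called higher and 2 lower, which with so few genes is close to the 4.90% and 7.59% of all genes (median 0.16). At an adjusted p under 0.05 alone, 7 were higher and 4 lower, against 31.6% and 24.8% of all genes. H1f0, which encodes the linker histone H1.0 known from slowly dividing and differentiated cells, read 8.53, 8.94 and 8.89 in M0505 cells and 10.96, 11.19 and 11.20 in STOSE cells (log2 fold change 2.33, SE 0.12, adjusted p = 9.90e-07). H1fx, which encodes the linker histone H1.10, read 8.54, 8.60 and 8.55 and then 6.15, 6.06 and 6.04 (−2.48, SE 0.06, adjusted p = 1.45e-08). Among all clustered and replacement histone genes measured, the largest rise (Hist1h1a, 2.45) and the largest fall (H1fx) were both of linker histone genes. H2afy2, which encodes macroH2A2, was also lower (−1.28, adjusted p = 1.15e-05). H2afz (0.73), H2afx (0.69), H2afj (0.41), Cenpa (0.34), H2afb1 (0.26) and H1foo (0.25, below background) were higher at an adjusted p under 0.05 but under 2-fold. H2afv, the other H2A.Z gene (−0.84), and H2afy, which encodes macroH2A1 (−0.56), were lower in the same way. H3f3a (0.14, adjusted p = 0.0987) and H3f3b (0.08, adjusted p = 0.257), which encode H3.3, did not pass that adjusted p.

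**Figure D5:**
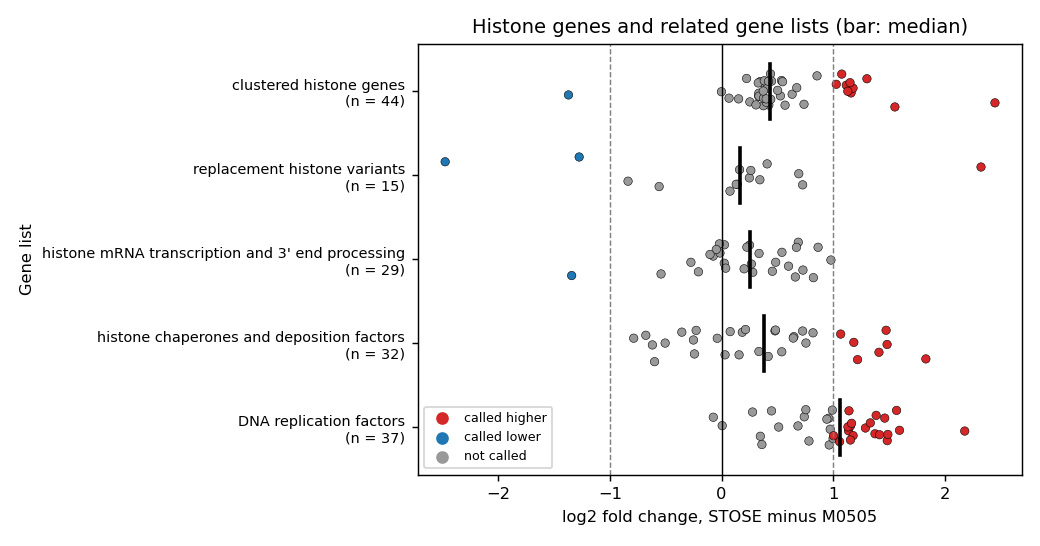
Log2 fold change (STOSE minus M0505, x axis) of the 44 histone genes and of 4 lists of related genes (y axis, with the number measured), each point a gene colored by its call and each bar the median. The medians run from 0.16 for replacement variants to 1.06 for DNA replication genes.

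The label of ovarian surface epithelium was checked against 12 markers. By their line means 11 of the 12 were above background in M0505 cells and 11 in STOSE cells. The mesothelial markers Upk3b (−0.34), Wt1 (−0.63) and Msln (−0.61) and the keratin gene Krt18 (−0.84) were lower in STOSE cells at an adjusted p under 0.05 but under 2-fold. Krt8 read 11.39, 11.38 and 11.34 and then 6.76, 6.98 and 6.72 and was called lower (−4.55, SE 0.08), as were Krt19, Krt7 and Gata4. Of other cell types, 6 of 10 leukocyte markers, Ptprc and Itgam among them, 2 of 9 endothelial markers, Pecam1 among them, and 6 of 10 granulosa and steroidogenic markers were at or below background. By M0505 means, 4, 7 and 3 markers of these lists were above background, and by STOSE means 3, 6 and 4. In each of these lists 2 genes were called lower and none higher: Cd68 (−2.82) and Cd74 (−2.27), Esam (−2.77) and Kdr (−5.17), and Inha (−3.93) and Star (−5.97). In M0505 cells they read 9.78, 6.65, 8.12, 9.58, 9.61 and 11.34 on average, in that order. The medians over the lists were 0.06, 0.06 and 0.12, and 3 genes of each were higher at an adjusted p under 0.05, such as the leukocyte genes Cd14 (0.97) and Lyz2 (0.56). The mean level of the leukocyte list was 5.05 to 5.13 on the M0505 arrays and 4.77 to 4.81 on the STOSE arrays, that of the endothelial list 5.57 to 5.66 and 4.75 to 4.80, and that of the granulosa and steroidogenic list 5.38 to 5.43 and 4.43 to 4.52. Their part in the histone result was not tested.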

How the data were processed

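RNA of 3 M0505 and 3 STOSE cultures was read on the Mouse Gene 1.0 ST design of Affymetrix. The authors deposited log2 values normalized by robust multi-array average (RMA; Affymetrix Expression Console, per the submitters' processing notes), which corrects background, quantile normalizes and summarizes each probe set. The labels name the Ambion WT Expression kit, which primes along the transcript and so reads mRNA without a poly(A) tail, whereas the paper's methods name another cDNA kit. The annotation release and the genome build are not given in the sources used here, and scanner files were not used. The table also holds the authors' line means and linear fold changes, which were not used. All 6 value columns matched an array by name, and 0 were left over.

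Of 28944 probe sets, 23530 had a symbol and stood for 20405 genes, each kept as its highest-mean probe set. STOSE and M0505 were compared with lmFit and eBayes of limma 3.58.1 (R 4.3.3), with no covariate and Benjamini-Hochberg adjustment over all genes. Genes past an adjusted p of 0.05 and 2-fold were called. The code was tested on simulated data. With 3 arrays a line an exact two-sided permutation p cannot go below 0.1, so none is given. An array has no read depth, and the number of arrays limits precision. Levels of different probe sets were used only to place genes against background, to split them at a signal of 11 and to choose the probe set or the brightest gene that the rules ask for.

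The members, the lists, the background measure and the motifs were chosen with earlier results of these data known. The split at a signal of 11 and the motif AAACACA were chosen after seeing the data. Genes were named by rule: in each class the 3 largest called rises and falls (or, with no call, the 2 largest differences) and the brightest gene, every H1 gene, the testis genes and genes whose probe sets disagree in sign, and from the lists the called genes (at most 6) and a fixed few. Symbols were matched to RefSeq (GRCm38.p6) by name or a synonym of 1 gene, which placed all 44 histone genes and 97.5% of all genes. Coordinates are those of the RefSeq promoter windows alone. Protein sequences were not used here. Alternatives varied the normalization, the filter on dim genes, the probe set, the test, the fold threshold, the arrays included and the replicate number as a block.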

Additional observations from a re-analysis of the deposited data

How the results depend on the processing

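Across the 19 alternatives that kept the 2-fold threshold, 378 of 392 values of single named histone genes kept their direction and their side of the threshold, 12 kept the direction and lost the call, and 2 reversed. Both reversals were Hist1h2bc, at −0.49 when its probe sets were averaged and −0.072 with its dimmest one, and with every probe set on its own the count called lower was 2. Limma's treat test, which asks for more than 2-fold, called 2 genes higher (Hist1h1a and Hist2h2bb) and 0 lower. Among all genes the treat test also called fewer, in both directions, than the main test. It called 994 of all genes lower, and 33.7% of its calls over all genes were higher, against 39.2% in the main test. With only 2 histone genes called higher, an excess over all genes could not be read from the treat test. At an adjusted p alone, 36 were higher (all genes: 6454 and 5066), and at 1.5-fold 14 (all genes: 2245 and 2871). Leaving out each array in turn gave 6 to 10 histone genes called higher, 6 without M0505 replicate 2, against 955 to 1065 of all genes. The H3 median was then 0.31 to 0.39. Centring each array on its median moved the median of all genes from 0.08 to 0.28 and that of the histone genes to 0.63 (H2A 0.59, H3 0.54), a shift shared by all genes. It also called Hist1h2bh and raised the share of higher among all calls from 39.2% to 55.5%. A further quantile normalization gave an H3 median of 0.28. Among genes with a mean under 11, a range chosen after seeing the data, the medians were 0.57 for all histone genes, 0.50 for H2A, 0.39 for H3 and 1.14 for H4. There the H3 median rested on 2 genes and the H2A median included 2 genes at background, so the classes cannot be set against each other. Deviations from the line mean correlated at 0.26, 0.04 and 0.25 between arrays of the same number, and at −0.29 to 0.12 between arrays of different numbers. The labels give no pairing, so the main fit used none. Whether arrays of the same number shared a batch was not tested. With the replicate block, 10 were called higher and 1 lower, and every array but STOSE replicate 2 correlated best with its own number. The 15 genes near the top of the range and the 5 at background limit what the fold changes of these genes can show.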
